A study of Mus musculus with 2 samples.

Results

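The 10 genes described here switch the primary cilium between assembly and disassembly. Their RNA was compared between cells high and low in cell cycle transcripts in day 2.5 mouse gastruloids. The counts are of RNA and hold no measure of cilia or of kinase activity. They were chosen by symbol from the 32285 genes of the count tables, and all 10 were found: Aurka, Plk1, Nek2, Hdac6, Kif24, Ccp110, Cep97, Nde1, Ttbk2 and Mphosph9. Gastruloids are aggregates of embryonic stem cells that begin to lay out a body axis in culture. Aggregates of about 300 cells were grown in N2B27 medium without serum, exposed from day 2 to 3 µM CHIR, which inhibits the kinase GSK3 and so turns on Wnt signalling, and pooled 12 hours later for single-cell RNA sequencing. The R1 embryonic stem cell line was used as wild type (its library is written as labelled WT) and as an Sp5/8 double knockout line (labelled dKO), and both groups received CHIR. Each genotype has 1 library, and the labels do not say how many clones the mutant line represents. No difference between genotypes therefore has a replicate check, no test was possible, and all intervals below cover counting error only.

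The primary cilium is an antenna of the cell that grows from the mother centriole. Cells build it in G1 or at rest and take it down before mitosis, so the same centriole can serve the spindle. Disassembly runs through the kinases Aurora A, Plk1 and Nek2, which act on the tubulin deacetylase Hdac6 and on the microtubule-depolymerizing kinesin Kif24. Assembly starts when the kinase Ttbk2 brings about the removal of the cap proteins CP110 (gene Ccp110) and Cep97 from the mother centriole, a step that Mphosph9 holds back. Nde1 restrains cilium length by tethering a dynein light chain.

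A barcode was kept as a cell with at least 2500 UMIs, at least 1000 genes and at most 10% mitochondrial UMIs. A UMI is a barcode put on each captured RNA molecule before amplification, so that its copies count as 1. This left 8707 cells with 97157331 UMIs in the library labelled WT (median 10571 per cell) and 10587 cells with 97644169 UMIs in the library labelled dKO (median 8637), and 27 barcodes passed in both. The targeted genes went against the label: Sp5 was at 109.1 CPM (UMIs of the gene per 1000000 UMIs of the cells summed) in the library labelled WT and at 478.7 CPM in the library labelled dKO, and Sp8 at 20.8 and 40.15 CPM. Counts per gene do not tell an intact allele from an edited one, so each direction below is one between labels and is not given as an effect of losing either gene. Pluripotency and epiblast markers summed to 951.1 and 998.9 CPM over 5 genes, primitive streak markers to 279.4 and 462.9, neural markers to 29.5 and 14.2 (mostly Irx3, at 19.75 and 8.17), and fibroblast markers to 6.72 and 6.35, with Col3a1 at 0 in both.

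The promoters of Aurka and Plk1 are shown because these 2 genes varied most between the cell classes described below. They come from RefSeq on GRCm38.p6 and are written 5′ to 3′ in the direction of the gene. The first pair gives the 250 bases before the RefSeq start site, at chr2:172370571-172370820 on the minus strand for Aurka and chr7:122159185-122159434 on the plus strand for Plk1. Capitals mark CCAAT boxes, which bind NF-Y and are common in promoters of mitotic genes.
Aurka: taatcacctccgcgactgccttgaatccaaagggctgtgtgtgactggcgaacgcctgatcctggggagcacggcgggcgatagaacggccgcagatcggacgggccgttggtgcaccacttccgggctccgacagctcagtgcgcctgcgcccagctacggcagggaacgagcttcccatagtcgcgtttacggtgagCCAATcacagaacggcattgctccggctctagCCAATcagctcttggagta
Plk1: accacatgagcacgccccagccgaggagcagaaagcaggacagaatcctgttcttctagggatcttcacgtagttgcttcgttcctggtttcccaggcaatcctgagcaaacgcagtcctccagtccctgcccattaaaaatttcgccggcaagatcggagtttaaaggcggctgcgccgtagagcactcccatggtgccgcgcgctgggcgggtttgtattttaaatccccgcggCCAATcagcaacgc

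The second pair gives 30 bases around the match to TTTGAA in the same genes, the letters of the cell cycle genes homology region (CHR), through which many genes of G2 and mitosis are held back earlier in the cycle. Capitals mark the match. It begins 33 bases after the RefSeq start in Aurka (chr2:172370521-172370550) and 31 bases after it in Plk1 (chr7:122159453-122159482).
Aurka CHR: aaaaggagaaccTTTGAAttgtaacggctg
Plk1 CHR: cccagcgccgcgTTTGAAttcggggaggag

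All 10 genes had an entry in the promoter table, Ttbk2 with 2. On both strands and within 300 bases, TTTGAA was found for 3 of the 10 genes, while 17.9% of all 32851 promoters hold it. A CCAAT box was found for each of the genes except Ccp110, against 37.4% of all promoters, and both motifs together in 3, Aurka and Plk1 among them, against 6.95%. The TTTGAA and CCAAT matches of these genes do not overlap, while 2 CCAAT matches overlap each other in Cep97. The E2F letters GCGGGAA were found in Mphosph9 alone among the 10, and in 4.6% of all promoters. These are matches of letters and not bound sites. The level of the third gene that holds both motifs did not follow those of Aurka and Plk1. TTTGAA was not found for Nek2, Nde1 or Mphosph9, nor for Ccnb1, the mitotic cyclin used below to place the cells.

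Cells were placed by their Ccnb1 UMIs, the mitotic cyclin B1, and by their summed Mcm2 to Mcm7 UMIs, the helicase loaded for DNA replication. To compare cells of unlike depth, each was thinned to 5000 UMIs, which left out 411 cells of the library labelled WT and 617 of the library labelled dKO. Limits were set at tertiles pooled over the libraries. Ccnb1 was so sparse that a cell was low with 0 and high with 1 or more thinned UMIs, and 5769 of the thinned cells had exactly 1. Mcm was low with 4 or fewer and high with 7 or more, and 2508 and 2084 cells lay on these limits. These classes are ranges of a count and not cell cycle phases. A thinned Ccnb1 UMI was found in 52.8% of cells (51.7 to 53.9) in the library labelled WT and in 53.8% (52.8 to 54.7) in the library labelled dKO, and without thinning in 73.7% and 70.4%. No cell type that lacks Ccnb1 was available as a background for these shares. In barcodes with 1 to 100 UMIs, taken as droplets without a cell, Ccnb1 was at 202.5 CPM (190.5 to 215.0) and 211.4 CPM (196.8 to 226.7), above its 185.7 and 181.9 CPM in cells. It was at 289.7 and 284.5 CPM in Ccnb1-high Mcm-low cells and at 71.0 and 60.1 CPM in Ccnb1-low Mcm-high cells, a gap that the choice of classes fixes. How many cells were called high through free Ccnb1 RNA was not tested.

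Ccnb1-high Mcm-low cells numbered 1742 and 2101 in the libraries labelled WT and dKO, and Ccnb1-low Mcm-high cells 1527 and 1889. Other cell cycle genes moved with these classes. A list of 11 mitotic genes had a median of 12 thinned UMIs per Ccnb1-high Mcm-low cell in both libraries, against 6 and 7 in Ccnb1-low Mcm-high cells. The sum of Pcna, Tyms, Rrm2 and Slbp had medians of 3 against 4. The Ccnb1-high Mcm-low cells were also deeper, with medians of 11690 against 9894 UMIs in the library labelled WT and 9619 against 8180 in the library labelled dKO. Extraembryonic endoderm markers, mostly Sparc, summed to 99.9 against 58.3 CPM in the first library and 89.95 against 59.3 in the second. The part of depth and of these markers in the results below was not tested. Median mitochondrial shares were 3.89% against 3.80%, and 4.10% against 4.07%.

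The kinases that start disassembly were compared first. Aurka (Aurora A, chromosome 2, 172356190 to 172370535 in GENCODE M21 on GRCm38) stood at 119.6 CPM (115.0 to 124.3) in Ccnb1-high Mcm-low cells and at 56.4 CPM (52.8 to 60.2) in Ccnb1-low Mcm-high cells of the library labelled WT. In the library labelled dKO it stood at 122.8 CPM (118.1 to 127.6) and 60.1 CPM (56.4 to 63.9). The intervals of the classes were apart in each library, with log2 ratios of 1.08 (0.97 to 1.19) and 1.03 (0.93 to 1.14). Plk1 (polo-like kinase 1, chromosome 7, 122159439 to 122169873) was at 106.0 CPM (101.7 to 110.5) against 49.65 (46.3 to 53.2) in the first library. It was at 106.5 CPM (102.1 to 111.0) against 53.97 (50.5 to 57.6) in the second, and its log2 ratios were 1.09 (0.98 to 1.21) and 0.98 (0.87 to 1.09). Among the 7600 genes with a mean of at least 10 CPM that were not used to place the cells, Aurka and Plk1 had ranks 8 and 9 by the mean of the log2 ratios of the libraries.

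A gene was counted as apart when it differed by 1.5-fold or more in the same direction in both libraries. Of the 10 genes 8 reached 10 CPM, and 2 of these, Aurka and Plk1, were higher by that measure, while 0 were lower. Of all genes 0.618% were higher and 0.132% were lower by it. The median log2 ratio of the 8 genes was 0.47 in the library labelled WT and 0.31 in the library labelled dKO, against 0.01 and 0.00 for all genes.

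**Figure D1:**
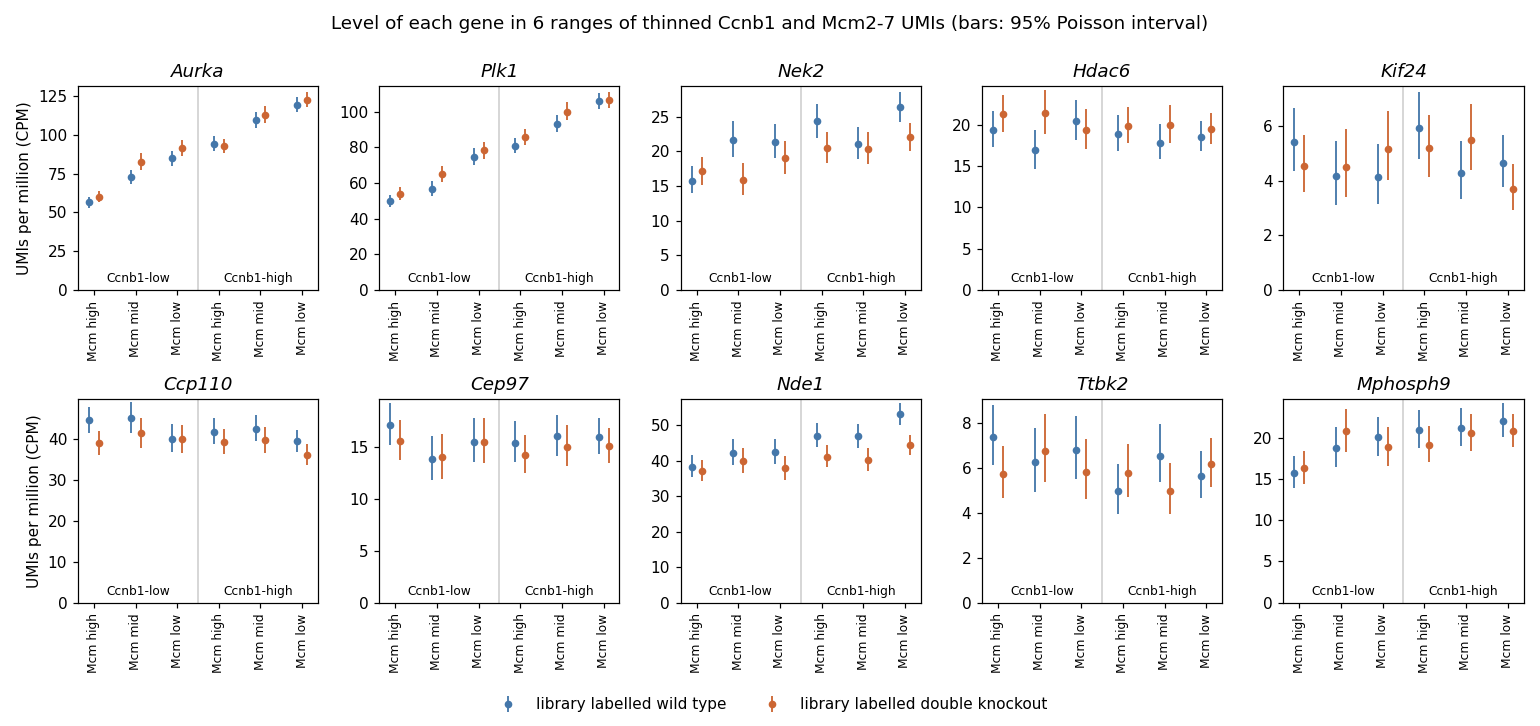
Level of each of the 10 genes in CPM (y axis, from 0) in 6 ranges of thinned Ccnb1 and Mcm2 to Mcm7 UMIs (x axis), 1 point per library, with 95% Poisson intervals. Aurka climbs from 56.4 to 119.6 CPM and Plk1 from 49.65 to 106.0 CPM between the outer ranges of the library labelled WT, while Hdac6 lies between 18.6 and 21.25 CPM in the outer ranges of both libraries.

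Nek2, the kinase that acts on Kif24 and on the linker between centrosomes (chromosome 1, 191821444 to 191833050), varied less. It stood at 26.4 CPM (24.2 to 28.6) against 15.8 (13.9 to 17.85) in the library labelled WT, a log2 ratio of 0.74 (0.52 to 0.96). In the library labelled dKO it stood at 22.05 CPM (20.1 to 24.1) against 17.1 (15.2 to 19.2), a log2 ratio of 0.36 (0.15 to 0.58). Nek2 thus passed 1.5-fold in the first library alone, and whether the libraries differ in this ratio was not tested. With Ccnb2, Cdc20, Cenpe and Cenpf in place of Ccnb1 and with Pcna, Tyms, Rrm2 and Slbp in place of the Mcm genes, the Nek2 ratios were both 0.67, and Nek2 joined Aurka and Plk1 past the fold. With each cell thinned to 2500 UMIs they were 0.30 (0.12 to 0.47) and 0.45 (0.26 to 0.63).

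Nde1 and Mphosph9, which both hold cilium formation back, were higher in Ccnb1-high Mcm-low cells by less than 1.5-fold. Nde1 (chromosome 16, 14163275 to 14192928) was at 53.1 CPM (50.05 to 56.3) against 38.4 (35.5 to 41.5) in the library labelled WT and at 44.5 (41.7 to 47.4) against 37.1 (34.2 to 40.1) in the library labelled dKO. Its log2 ratios were 0.47 (0.33 to 0.61) and 0.26 (0.12 to 0.41). Mphosph9 (chromosome 5, 124250959 to 124327972) was at 22.1 CPM (20.1 to 24.2) against 15.8 (13.9 to 17.85) and at 20.8 (18.9 to 22.9) against 16.3 (14.4 to 18.35), with log2 ratios of 0.48 (0.26 to 0.71) and 0.35 (0.13 to 0.58). For both genes the class intervals were apart in each library. With each cell thinned to 2500 UMIs the Nde1 ratios were 0.29 (0.17 to 0.41) and 0.12 (-0.01 to 0.25), and those of Mphosph9 were 0.18 (-0.0047 to 0.37) and 0.19 (0.0027 to 0.38). With the thinned UMIs themselves summed, Nde1 was at 0.65 (0.44 to 0.86) and 0.15 (-0.05 to 0.36). The size of these ratios, and whether their intervals left out 0, thus depended on the thinning. Their mean ratios had ranks 148 and 107 of 7600. Antisense genes are annotated at Plk1 (Gm44985), Nek2 (Gm38037), Nde1 (Marf1) and Mphosph9 (Gm23171), and Mphosph9 also has Gm43339 and Gm43340 on its own strand. Whether counting used the strand is not given in the sources used here, so the values of these 4 genes are less certain.

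The cap proteins and Hdac6 showed no such climb. Ccp110 (chromosome 7, 118712552 to 118737024) was at 39.3 CPM (36.7 to 42.1) in Ccnb1-high Mcm-low cells against 44.5 (41.3 to 47.85) in Ccnb1-low Mcm-high cells of the library labelled WT. In the library labelled dKO it was at 36.1 (33.6 to 38.7) against 38.9 (35.9 to 42.0), and the log2 ratios were -0.18 (-0.32 to -0.03) and -0.11 (-0.26 to 0.05). Its partner Cep97 (chromosome 16, 55899888 to 55934855) had ratios of -0.10 (-0.33 to 0.14) and -0.05 (-0.29 to 0.19), at levels between 15.1 and 17.15 CPM in these classes. Hdac6 (chromosome X, 7930120 to 7947889) had ratios of -0.06 (-0.28 to 0.16) and -0.12 (-0.33 to 0.08), at 18.6 to 21.25 CPM. In these classes the Cep97 and Hdac6 intervals held 0 in both libraries and ended below 1.2-fold on the upper side. A 1.5-fold difference lay outside all 6 intervals of these 3 genes. With each cell thinned to 2500 UMIs the Hdac6 ratios were -0.005 (-0.20 to 0.19) and -0.26 (-0.45 to -0.07), and the second interval left out 0. With the sharper classes given below they were -0.63 (-1.38 to 0.04) and -0.20 (-0.87 to 0.43). Those of Cep97 were then 0.27 (-0.36 to 0.88) and 0.25 (-0.49 to 0.96). These wider intervals of Hdac6 and Cep97 did not leave out a 1.5-fold difference.

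Kif24 and Ttbk2 did not reach 10 CPM and their ratios rest on few UMIs. Kif24 (chromosome 4, 41390745 to 41464887) had 99 and 88 UMIs in the classes of the library labelled WT and 78 and 76 in those of the other, with log2 ratios of -0.22 (-0.65 to 0.21) and -0.30 (-0.78 to 0.17). Ttbk2 (chromosome 2, 120732816 to 120850604) had 120 and 120 UMIs, then 131 and 96, with ratios of -0.39 (-0.76 to -0.01) and 0.11 (-0.28 to 0.51). A level lower by 1.5-fold lies inside both Kif24 intervals and inside that of Ttbk2 in the library labelled WT, so the depth leaves these ratios wide. Cdan1 overlaps Ttbk2 on the same strand.

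**Figure D2:**
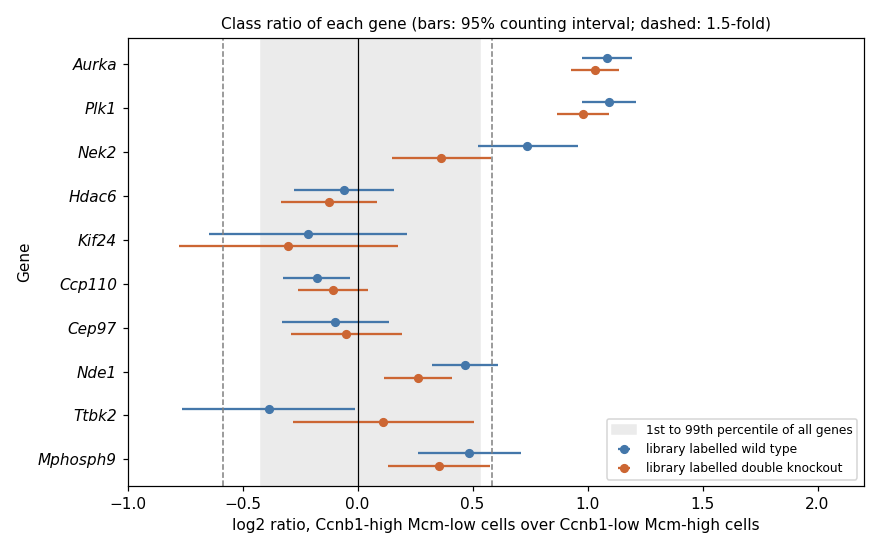
Log2 ratio of Ccnb1-high Mcm-low over Ccnb1-low Mcm-high cells (x axis) for each gene (y axis), 1 point per library with its 95% counting interval. The grey band spans the 1st to 99th percentile of all genes in either library, and dashed lines mark 1.5-fold. Aurka and Plk1 lie right of the band in both libraries, at 0.98 to 1.09, Nek2 in the library labelled WT alone.

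Each anchor was then compared within a range of the other. At low Mcm, Ccnb1-high over Ccnb1-low cells gave log2 ratios of 0.50 (0.40 to 0.60) and 0.43 (0.33 to 0.53) for Aurka in the libraries labelled WT and dKO, and 0.50 (0.40 to 0.61) and 0.44 (0.34 to 0.55) for Plk1. At low Ccnb1, Mcm-high over Mcm-low cells gave -0.59 (-0.71 to -0.46) and -0.60 (-0.73 to -0.48) for Aurka, and -0.59 (-0.73 to -0.46) and -0.54 (-0.67 to -0.41) for Plk1. Both kinases thus varied with Ccnb1 within the low Mcm range and with Mcm within the low Ccnb1 range. Ccnb1 itself was not level within its ranges. Its own Mcm ratio was -0.40 (-0.51 to -0.28) and -0.45 (-0.58 to -0.33) at low Ccnb1, and -0.25 and -0.21 at high Ccnb1. The part of this in the Mcm ratios of the other genes was not tested. For Nde1 the Ccnb1 ratio at low Mcm was 0.32 (0.18 to 0.47) and 0.23 (0.07 to 0.39), while the Mcm ratio at low Ccnb1 was -0.15 (-0.31 to 0.02) and -0.03 (-0.21 to 0.14). At high Ccnb1 the Nde1 Mcm ratio was -0.17 (-0.31 to -0.04) and -0.11 (-0.26 to 0.03), and at high Mcm its Ccnb1 ratio was 0.30 (0.14 to 0.45) and 0.15 (-0.01 to 0.31). The libraries thus differed in which Nde1 intervals left out 0, and that difference was not tested. For Mphosph9 the Ccnb1 ratio was 0.14 in both libraries at low Mcm, with intervals that held 0, and 0.41 (0.17 to 0.65) and 0.23 (-0.0031 to 0.47) at high Mcm. Its Mcm ratio was -0.34 (-0.59 to -0.09) and -0.21 (-0.46 to 0.04) at low Ccnb1, and -0.07 (-0.28 to 0.13) and -0.12 (-0.33 to 0.09) at high Ccnb1.

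By steps of the thinned Ccnb1 count, Aurka went from 70.4 CPM with 0 through 95.05 with 1, 118.8 with 2 and 138.7 with 3 to 149.7 with 4 or more in the library labelled WT. In the library labelled dKO these levels were 76.4, 98.95, 117.7, 139.1 and 156.2 CPM. Plk1 went from 59.9 to 124.2 and from 64.75 to 125.4 CPM over the same steps. Nek2 went from 19.3 to 31.7 and from 17.4 to 24.8 CPM, and Nde1 from 40.9 to 58.0 and from 38.2 to 51.4. The last step held 225 and 220 cells, with median depths of 12346 and 10658 UMIs against 10129 and 8348 with no Ccnb1 UMI.

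**Figure D3:**
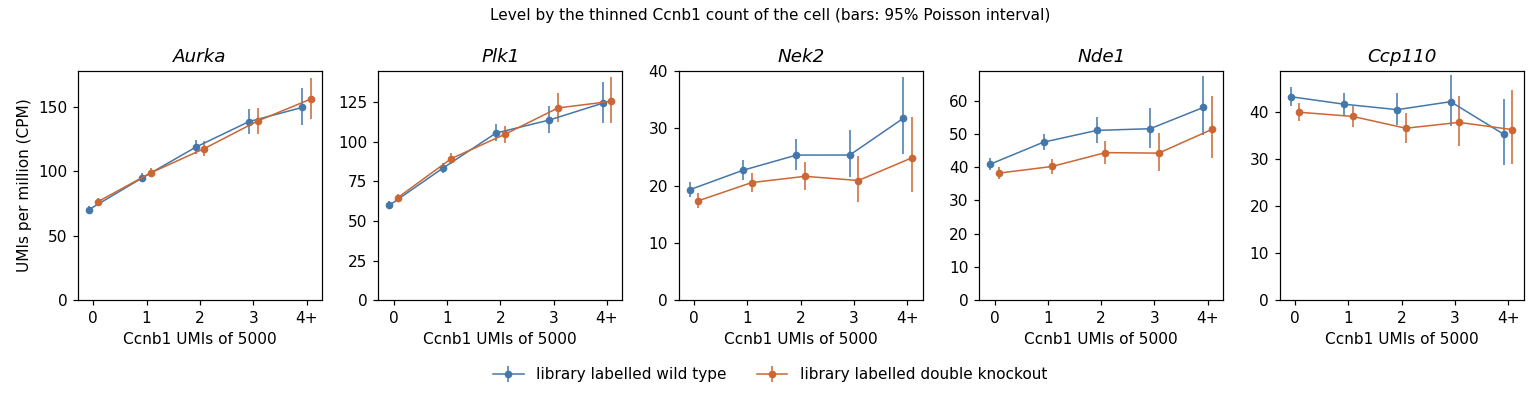
Level of 5 genes in CPM (y axes, from 0) by the number of Ccnb1 UMIs among 5000 thinned UMIs of the cell (x axes), 1 line per library, with 95% Poisson intervals. Aurka and Plk1 are higher at each further step in both libraries, up to 149.7 and 124.2 CPM in the library labelled WT, and Ccp110 is not.

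Sharper classes, chosen after the values above were seen, gave wider gaps. Between the outer 10% of cells by each of the 11-gene mitotic list and the Mcm sum, 150 against 300 cells in the library labelled WT and 163 against 343 in the other, Aurka had log2 ratios of 2.45 (2.10 to 2.82) and 2.30 (1.96 to 2.66). Plk1 had 2.47 (2.08 to 2.89) and 2.05 (1.69 to 2.42), and Nde1, at 0.89 (0.48 to 1.30) and 0.71 (0.23 to 1.19), also passed the fold, while Nek2 was at 0.37 (-0.25 to 0.97) and 0.76 (0.11 to 1.41). With each cell thinned to 2500 UMIs, which leaves no cell out, Aurka was at 0.74 and 0.72 and Plk1 at 0.78 and 0.63. The size of the Aurka and Plk1 gaps thus moved by more than 1.5 times with how the cells were placed, and its direction did not.

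Free RNA in droplets can give UMIs to cells that do not express a gene. In the same barcodes of 1 to 100 UMIs Aurka was at 85.0 CPM (77.3 to 93.3) in the library labelled WT and 100.8 (90.9 to 111.6) in the library labelled dKO. These levels lay above those of Ccnb1-low Mcm-high cells and below those of Ccnb1-high Mcm-low cells. Plk1 was at 66.4 (59.65 to 73.8) and 65.2 CPM (57.3 to 74.0) there, again between the classes. In the library labelled dKO this interval overlapped that of Ccnb1-low Mcm-high cells. Nek2 was at 28.5 (24.1 to 33.4) and 28.0 CPM (22.9 to 34.0), above the Ccnb1-low Mcm-high cells in each library. These values were also above those of Ccnb1-high Mcm-low cells, but the intervals overlapped in each library. Mphosph9 was lower there than in cells as a whole, at 12.7 (9.85 to 16.15) and 12.9 CPM (9.54 to 17.2) against 19.8 and 19.2. How much free RNA the cells hold was not tested.

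The genes of most like pattern were sought over the 6 filled ranges of both libraries, 12 points that share libraries and cells, by Pearson's r of log2(CPM + 1). Each is the highest found among all genes of at least 10 CPM. How high an r unrelated genes reach in such a search was not tested, so a high r alone does not show a shared pattern. For Aurka they were Prc1 (r = 0.991), Top2a (0.99) and Kif2c (0.989), and for Plk1 Nusap1 (0.994), Top2a (0.99) and Kif2c (0.988). Prc1 and Nusap1 bundle spindle microtubules, Top2a untangles chromosomes and Kif2c depolymerizes microtubules at kinetochores. Aurka and Plk1 had r = 0.982 with each other. For Nde1 the nearest were Bub1 (0.928), Nup35 (0.927) and Trerf1 (0.922), and for Mphosph9 Spdl1 (0.935), Arhgap19 (0.923) and Ccnf (0.912). For Nek2 they were Cyth2 (0.912), Fign (0.909) and Bax (0.905). Ccp110 was nearest to Tomm70a (0.915), Dnaaf2 (0.909) and Arf4 (0.904), Hdac6 to Krtcap2 (0.87) and Carhsp1 (0.867), and Cep97 to Prag1 (0.864), Mdm1 (0.848) and Ndufa8 (0.839). The lowest r between members were those of Ccp110 with Plk1 (-0.604) and Aurka (-0.526), and of Hdac6 with Nek2 (-0.547) and Nde1 (-0.52).

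The other genes of the pathway were taken as 2 lists. Of 20 partners of disassembly 17 reached 10 CPM, and 1 was higher in Ccnb1-high Mcm-low cells by 1.5-fold in both libraries and 0 lower. This was Tpx2, the spindle factor that activates Aurora A, at log2 ratios of 0.85 and 0.70. Bora, which helps Aurora A to activate Plk1, was at 0.31 and 0.32, and Hdac2 at -0.24 and -0.22. The list's medians were 0.03 and 0.06, and its 1 call of 17 stands beside 0.618% of all genes higher and 0.132% lower. Of 25 genes of CP110 removal and the centriole cap 21 reached 10 CPM, with medians of -0.07 and -0.01, and 1 of the 21 was higher and 0 lower, beside the same shares of all genes. This was Ccnf (cyclin F), which marks CP110 for degradation, at 0.68 and 0.63. Cep89, a distal appendage protein, was at 0.32 and 0.37, and Cntrob at 0.34 and 0.24.

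Genes of known cell cycle phase were read as a reference for the classes. Of 11 mitotic genes 7 were higher by 1.5-fold in both libraries and 0 lower, led by Ube2c at 1.31 and 1.07 and Hmmr at 1.14 and 1.01. Of 10 S phase genes 0 were higher and 5 lower, led by Ccne2 at -1.33 and -1.31 and Ung at -1.27 and -1.12. The mitotic list ran from 0.06 to 1.31, with medians of 0.82 and 0.78, and Ccna2 was at 0.13 and 0.07. Aurka and Plk1 lay above the medians and within this range. Nek2, Nde1 and Mphosph9 also lay within the range, below the medians.

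Between the libraries as a whole, the series asks whether Sp5 and Sp8 act on cilium formation. Of the 8 genes that reached 10 CPM, 0 were higher and 0 lower in the library labelled dKO by 1.2-fold or more. Of all 7607 genes at that level 2.71% were higher and 3.98% lower by that measure. The median log2 ratio of the 8 genes, of the library labelled dKO over the library labelled WT, was -0.06, and that of all genes was -0.02. The streak markers were higher and the neural markers lower in the library labelled dKO, as given above, and their part in the library ratios was not tested. None of the cilium switch genes was thus past this fold.

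Aurka stood at 92.2 CPM in the library labelled WT and 95.8 CPM in the library labelled dKO, a log2 ratio of 0.06 (0.01 to 0.10). Plk1 stood at 78.8 and 83.3 CPM (0.08, 0.04 to 0.13) and Hdac6 at 18.6 and 20.1 CPM (0.11, 0.02 to 0.21). Each was slightly higher in the library labelled dKO. Nde1 was lower there, at 45.6 and 40.3 CPM (-0.18, -0.24 to -0.12), as were Nek2 at 21.9 and 19.4 CPM (-0.18, -0.27 to -0.09) and Ccp110 at 41.9 and 38.7 CPM (-0.11, -0.18 to -0.05). The intervals of the remaining genes held 0: Cep97 at -0.08 (-0.18 to 0.03), Mphosph9 at -0.04 (-0.13 to 0.05), Ttbk2 at -0.08 (-0.25 to 0.08) and Kif24 at -0.02 (-0.21 to 0.17). With TMM scaling the Kif24 ratio turned to 0.01. All 10 ratios lay between the 1st and 99th percentiles of all genes, -0.39 and 0.38.

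Within classes the libraries were also compared. In Ccnb1-high Mcm-low cells Nek2 was at -0.26 (-0.44 to -0.08) and Nde1 at -0.26 (-0.38 to -0.13), close to 1.2-fold. In Ccnb1-low Mcm-high cells Nek2 was at 0.12 (-0.13 to 0.37) and Nde1 at -0.05 (-0.21 to 0.11). Whether the library ratio differs between the classes was not tested. Aurka was at 0.04 (-0.04 to 0.12) and 0.09 (-0.04 to 0.22) in these classes.

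**Figure D4:**
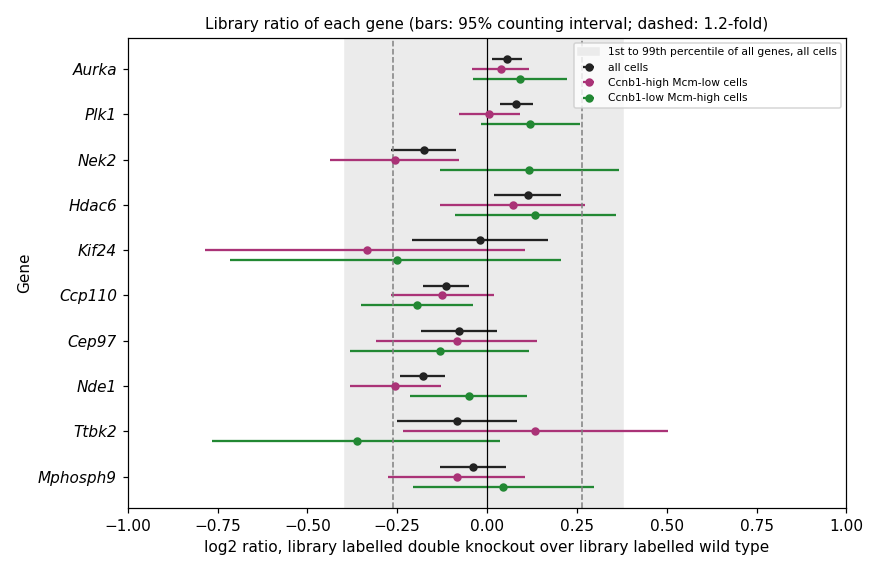
Log2 ratio of the library labelled dKO over the library labelled WT (x axis) for each gene (y axis), in all cells and within the outer classes, with 95% counting intervals. The grey band spans the 1st to 99th percentile of all genes in all cells, and dashed lines mark 1.2-fold. All 10 points for all cells lie inside the dashed lines, between -0.18 and 0.11.

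Of the pathway lists, 1 of 17 partners of disassembly was higher in the library labelled dKO by 1.2-fold and 0 were lower, beside 2.71% and 3.98% of all genes. A single gene among 17 is near these shares. This was Plk4, the kinase that starts centriole duplication, at 128.8 CPM (126.5 to 131.0) and 173.8 CPM (171.2 to 176.5), a log2 ratio of 0.43 (0.40 to 0.47). Its class ratios were -0.17 and -0.05. Usp8 was at -0.25 (-0.31 to -0.19) and Hdac2 at -0.25 (-0.28 to -0.22). Of the 21 genes of the CP110 list 0 were higher and 1 was lower, again near the shares of all genes. This was Cep83, a distal appendage protein needed for docking of the mother centriole, at -0.29 (-0.37 to -0.22). Sclt1 was at -0.16.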

How the data were processed

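Per the labels' protocols, cDNA came from a 10x Genomics 3′ single-cell kit. The authors deposited raw UMI counts per gene and barcode, with no normalization and no cell filter. The labels name Cell Ranger 8.0.1, and the submitters' processing notes list STARsolo, STAR 2.7.9a, Seurat 5.1.0 and mm10. Which of these wrote the matrices is not given in the sources used here.

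Cells were called with the limits given above. No doublet caller was run. Counts were summed per class and library and scaled to CPM, and log2 ratios carry 0.5 added UMIs per sum. Intervals are 95%: exact Poisson for CPM, exact conditional for ratios and Clopper-Pearson for shares. No test was run, since each genotype has 1 library. Thinning used draws without replacement with a fixed seed. The class ranges were planned as 9, but the sparse Ccnb1 counts filled 6, so likeness rests on 12 points. The ratio and its interval were run on simulated Poisson sums, the model that the interval assumes. These leave out differences between cells, so the run checks the calculation and not the fit of the intervals to these data.

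The genes and lists were chosen with earlier results of these data known. All 10 members are named. Of each list those with the 3 largest ratios by class and by library at 10 CPM or more could be named, and for likeness the 3 highest r. Python 3.11.15, NumPy 2.4.6, SciPy 1.17.1 and edgeR 4.0.16 (TMM factors only) were used. Alternatives varied thinning, class limits, anchors, cell filters, scaling, weights and the CPM minimum. A promoter sequence and 2 genes that these rules would name are not reported here.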

Additional observations from a re-analysis of the deposited data

Results flagged for a closer look

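The class ratio of Ttbk2, the kinase that starts cilium assembly, lay on opposite sides of 0 in the libraries: its log2 ratio of Ccnb1-high Mcm-low over Ccnb1-low Mcm-high cells was -0.39 in the library labelled WT and 0.11 in that labelled dKO. The difference between the libraries was not tested, and the counts per class were 96 to 131 UMIs.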

How the results depend on the processing

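The counts of members past the fold were within 1.5 times the reported ones under each alternative run. In the class comparison 2 or 3 genes were higher and 0 lower, and Aurka and Plk1 were among them each time. Between the libraries 0 of the genes at 10 CPM were higher and 0 lower under all alternatives. A CPM minimum of 1 gave 0 and 0 as well, but was run on all cells only. Below 10 CPM, Kif24 and Ttbk2 passed 1.2-fold within a class, with intervals that held 0. Kif24 was at -0.34 (-0.78 to 0.11) in Ccnb1-high Mcm-low cells and Ttbk2 at -0.36 (-0.77 to 0.04) in Ccnb1-low Mcm-high cells. Of the class ratios of single genes under alternatives, 144 stayed within the counting interval of the reported value, 35 moved out of it and 1, whose interval had left out 0, reversed: Ttbk2 in the library labelled WT was at 0.14 with 3 or more thinned Ccnb1 UMIs. Of the library ratios 71 stayed, 8 moved and 1 reversed: Nek2 was at 0.12 in Ccnb1-low Mcm-high cells alone. The cause of these changes was not tested. Class limits at quartiles gave the same classes as tertiles, so their ratios, counted among the 144, could not move. Leaving out the 27 barcodes that passed in both libraries also changed few cells. TMM scaling put the median ratio of all genes at 0.01, against -0.02 without it. The minimum of 3 Ccnb1 UMIs, summed thinned UMIs and classes of the outer 10% were chosen after seeing the data. No paired analysis was possible because each genotype has 1 library. Depth limits Kif24 and Ttbk2 most, with 456 to 601 UMIs per library.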
